A study of Mus musculus with 4 samples.

Results

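Mural cells, the pericytes and smooth muscle cells that wrap the endothelium of blood vessels, were chosen from the single-cell RNA sequencing (scRNA-seq) of mouse fracture callus by their own unique molecular identifiers (UMIs), each of which stands for 1 captured mRNA molecule. A cell was taken when it held 4000 to 50000 UMIs, 2000 to 7000 detected genes and at most 8% mitochondrial UMIs, together with at least 5 UMIs of *Rgs5* plus *Myh11*, at least 1 UMI of *Notch3*, at most 1 of the endothelial gene *Pecam1* and 0 of the leukocyte gene *Ptprc*. This gave 687 mural cells of 25479 cells within the limits, from 34038 deposited barcodes. Of these, 598 held 3 or more *Myh11* UMIs and are called Myh11-high, and 89 held fewer and are called Myh11-low. All callus came from fractured tibiae of wild-type C57BL/6J mice that were 3 months old, collected 4 or 7 days post fracture (dpf). RA mice received K/BxN serum injection, a transferred arthritis, and control mice received vehicle. The 4 libraries (control_4d, control_7d, RA_4d and RA_7d) were each 1 pool of callus cells, so each condition had 1 library at each time. No test between conditions was run, and a difference between conditions cannot be told apart from a difference between libraries. All intervals are 95% intervals for counting error alone. For a ratio of UMIs they take each UMI as an independent count. They are therefore too narrow where the UMIs of a gene lie in few cells.

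Pericytes lie inside the basement membrane of capillaries, and smooth muscle cells form the contractile coat of arterioles, arteries and veins. Both cell types need platelet-derived growth factor B from endothelial cells, received by Pdgfrb, and Notch signals from neighbouring cells, received in mural cells mainly by Notch3. *Rgs5* encodes a brake on G protein signalling that is used as a pericyte marker, *Myh11* the smooth muscle myosin heavy chain, and *Acta2* the smooth muscle actin that contractile cells share with activated fibroblasts. In bone repair, vessels grow into the callus before and during the replacement of cartilage by bone. By Ensembl gene and GRCm38 position (GENCODE M21), *Rgs5* is ENSMUSG00000026678 on chromosome 1 at 169655501 to 169695813, *Myh11* ENSMUSG00000018830 on chromosome 16 at 14194535 to 14291372, *Notch3* ENSMUSG00000038146 on chromosome 17 at 32120820 to 32166852 and *Acta2* ENSMUSG00000035783 on chromosome 19 at 34241090 to 34255590.

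Promoters of markers from both cell types are shown because the markers separated into groups that followed *Myh11* and groups that ran against it. They are RefSeq sequences of GRCm38.p6, from 250 bases before to 50 bases after the start of the gene, written 5′ to 3′ on the strand of the gene. Capitals mark the CArG box, the site bound by serum response factor in contractile genes, in *Myl9* (chr2:156775214-156775513, plus strand), and the Rbpj core TGGGAA, the site of the DNA-binding partner of Notch, in *Acta2* (chr19:34255324-34255623, minus strand) and in *Kcnj8* (chr6:142571565-142571864, minus strand).
Myl9: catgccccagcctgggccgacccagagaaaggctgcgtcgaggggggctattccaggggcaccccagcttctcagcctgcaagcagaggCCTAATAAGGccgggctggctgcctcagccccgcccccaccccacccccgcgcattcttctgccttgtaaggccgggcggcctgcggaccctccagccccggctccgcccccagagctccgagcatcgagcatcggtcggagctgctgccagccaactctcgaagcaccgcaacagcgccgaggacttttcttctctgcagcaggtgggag
Acta2: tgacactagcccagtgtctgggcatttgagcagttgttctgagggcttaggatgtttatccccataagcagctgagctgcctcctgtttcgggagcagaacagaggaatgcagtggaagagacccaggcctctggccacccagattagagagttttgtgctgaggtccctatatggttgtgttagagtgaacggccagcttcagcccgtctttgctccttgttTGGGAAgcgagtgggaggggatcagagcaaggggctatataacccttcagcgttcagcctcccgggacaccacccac
Kcnj8: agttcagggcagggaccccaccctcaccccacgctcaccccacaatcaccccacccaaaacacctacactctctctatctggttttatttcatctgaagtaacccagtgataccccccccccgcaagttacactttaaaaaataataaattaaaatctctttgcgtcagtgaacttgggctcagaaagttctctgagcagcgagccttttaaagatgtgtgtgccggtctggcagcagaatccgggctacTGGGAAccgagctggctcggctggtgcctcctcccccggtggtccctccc
The CArG box of *Myl9* began 161 bases before the start, and the Rbpj core began 27 bases before it in *Acta2* and at base 1 of the gene in *Kcnj8*. With both strands searched, the CArG box, in its strict form alone and with no mismatch allowed, was in 535 of 32851 promoters (1.63%), or 1.81% of the genes they belong to, in 1 of the 12 smooth muscle markers that matched a promoter and in 0 of the 10 pericyte markers that matched. The Rbpj core was in 8397 promoters (25.6%), or 28.3% of the genes, in 4 of the 12 smooth muscle markers (*Acta2*, *Pln*, *Smtn* and *Tpm1*) and in 7 of the 10 pericyte markers (*Abcc9*, *Colec11*, *Gucy1a1*, *Gucy1b1*, *Kcnj8*, *Steap4* and *Vtn*). The promoters of *Rgs5* and *Notch3* held neither. The marker counts are of genes, and boxes that differ from the strict form were not searched. A match gives letters only and not a bound site.

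Mural cells were a small share of every library. They numbered 71 of 5470 cells in control_4d (1.30%, interval 1.02 to 1.63), 61 of 4110 in RA_4d (1.48%, 1.14 to 1.90), 198 of 7676 in control_7d (2.58%, 2.24 to 2.96) and 357 of 8223 in RA_7d (4.34%, 3.91 to 4.80). The share was higher at 7 than at 4 dpf in both conditions and highest in RA callus at 7 dpf. RA callus held 1.14 times the control share at 4 dpf (0.799 to 1.63), an interval that spans 1, and 1.68 times at 7 dpf (1.41 to 2.01). Equal numbers of cells were loaded, so a share is not a number of cells in the callus. The ratio at 7 dpf depended on what the mural cells were counted against. Leukocytes with 2 or more *Ptprc* UMIs made up 33.1% of control_7d and 20.6% of RA_7d, a ratio of 0.621 (0.584 to 0.661). Among cells with 0 *Ptprc* UMIs the ratio of mural cells at 7 dpf was 1.35 (1.13 to 1.61). Endothelial cells, here cells with at least 3 *Pecam1* and at least 1 *Cdh5* UMIs, had a ratio of 1.27 (1.17 to 1.39) of their own. Per 100 endothelial cells there were 11.5 mural cells in control_4d, 13.4 in RA_4d, 22.4 in control_7d and 29.7 in RA_7d. The RA to control ratio per endothelial cell was 1.17 (0.818 to 1.67) at 4 dpf and 1.32 (1.11 to 1.58) at 7 dpf. From 4 to 7 dpf the mural share was 1.99 times as high in control (1.51 to 2.64) and 2.93 times in RA callus (2.22 to 3.90), and per endothelial cell 1.96 (1.49 to 2.61) and 2.21 times (1.68 to 2.95). Among cells with 0 *Ptprc* UMIs the ratio over time was 1.2 in control (0.908 to 1.59), an interval that spans 1, and 1.42 in RA (1.08 to 1.90).

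**Figure D1:**
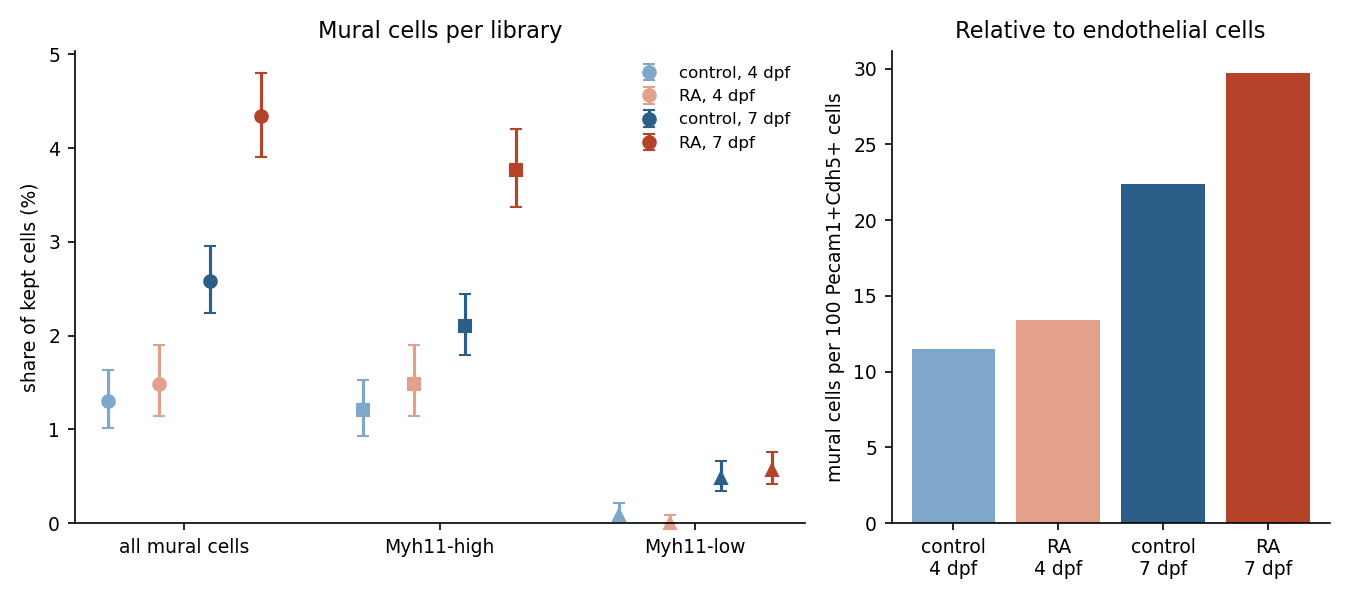
Left, percent of the cells within the limits that were mural, Myh11-high and Myh11-low in each library, with exact 95% intervals for counting error, and right, mural cells per 100 *Pecam1*+*Cdh5*+ cells. RA_7d stands highest at 4.34% and at 29.7 per 100, and Myh11-low cells are near 0 at 4 dpf.

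The 2 classes did not have the same share in all libraries. Myh11-high cells were 66 of 71 mural cells in control_4d (93.0%), 161 of 198 in control_7d (81.3%), 61 of 61 in RA_4d (100%) and 310 of 357 in RA_7d (86.8%). Myh11-low cells were therefore 5, 37, 0 and 47 cells, and the 0 of 61 in RA_4d allows a share of up to 4.92% by a floor of 3 counts, or 5.87% by the exact interval. At 7 dpf the RA share was 1.80 times the control share (1.48 to 2.19) for Myh11-high cells and 1.19 times (0.754 to 1.88) for Myh11-low cells, with overlapping intervals. In control callus the Myh11-low share was 5.27 times as high at 7 as at 4 dpf (2.07 to 17.2), from 5 and 37 cells. Mural cells of the 4 dpf libraries held more UMIs, with a median of 17079 UMIs per mural cell in control_4d and 17468 in RA_4d against 11953 in control_7d and 11350 in RA_7d, and the cut at 3 UMIs is easier to reach in a cell with more UMIs. With the cut set at 2 *Myh11* UMIs per 10000, the high share was 93.0% in control_4d, 93.4% in RA_4d, 81.8% in control_7d and 88.8% in RA_7d. The shares at 4 dpf then lay within 1 percentage point of each other.

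The label was checked against marker genes that the rule did not use. With every cell thinned to 4000 UMIs, *Acta2* was detected in 93.0% of mural cells, against 23.1% of cells with *Pdgfra* and *Prrx1* (fibroblast-like by these genes), 4.27% of endothelial cells and 4.29% of *Ptprc*+ cells. *Higd1b*, a pericyte marker, was detected in 39.4% of mural cells and in 0.0949% of endothelial cells, and *Pln*, the gene of the phospholamban that restrains calcium uptake in muscle, in 37.7% and 0.253%. *Cdh5*, the cadherin of endothelial junctions, stood at 1.77 CPM (UMIs of a gene scaled to the same total in every group of cells) in mural cells, and at 980 CPM in endothelial cells, which were chosen in part by it. All 15 smooth muscle markers and all 14 pericyte markers had UMIs in every library. Leading genes by their fold over all other cells, a list chosen after the values were seen, were *Myh11*, *Rgs5*, the olfactory receptor gene *Olfr558* (209 against 1.01 CPM), *Pln* (229 against 1.27), *Higd1b* (201 against 0.981), *Nrip2*, *Synpo2* and the guanylate cyclase subunit gene *Gucy1a1* (547 against 5.54). The values of *Rgs5*, *Myh11* and *Notch3* are a description, because the rule used them. A mural cell held a median of 38 *Rgs5* UMIs (0 to 455), 18 *Myh11* UMIs (0 to 472) and 9 *Notch3* UMIs (1 to 54). Library medians of *Rgs5* were 64 UMIs in control_4d, 48 in RA_4d, 47 in control_7d and 32 in RA_7d, and those of *Myh11* were 35, 41, 14 and 16 in the same order. The ranges overlapped widely in all 4 libraries.

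**Figure D2:**
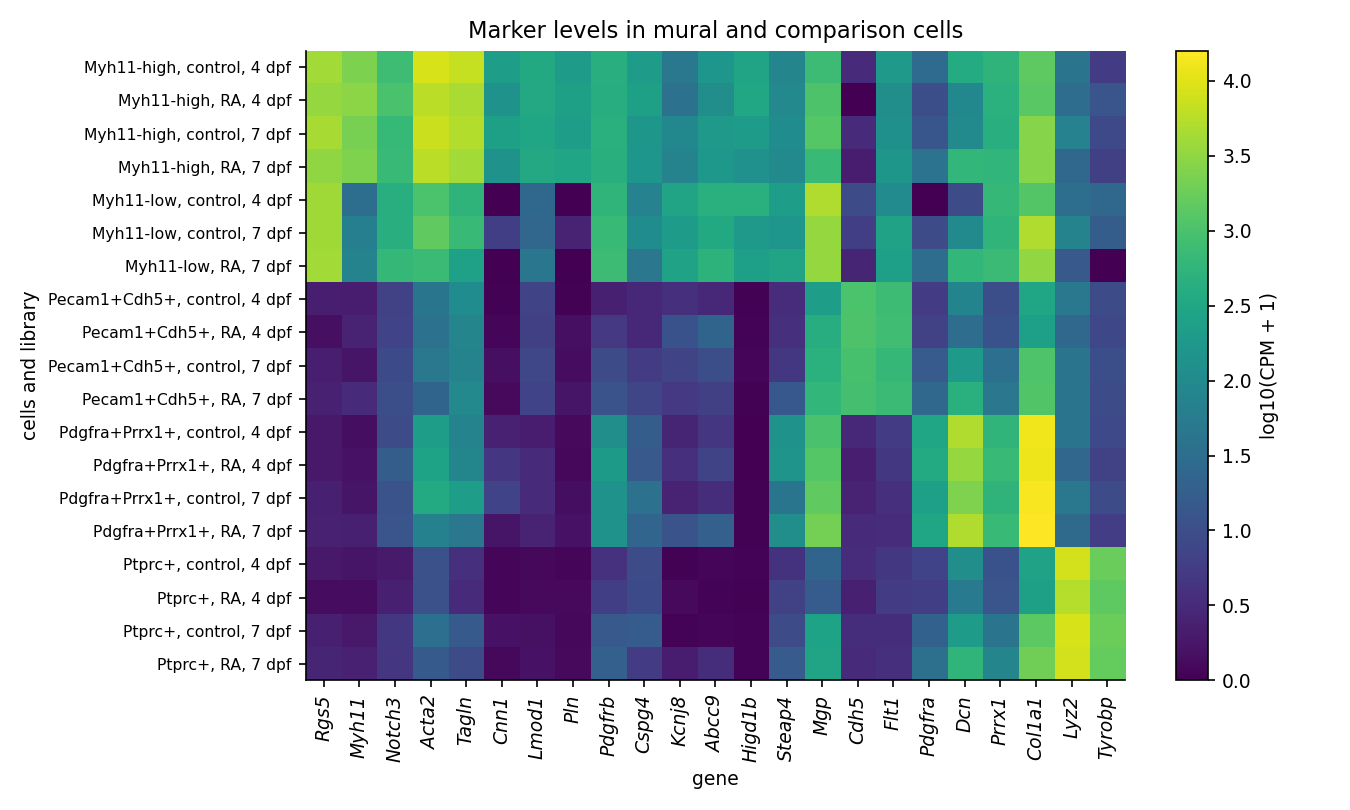
Heat map of log10 of CPM plus 1 for marker genes (x axis) in Myh11-high, Myh11-low and comparison cells of each library (y axis, RA at 4 dpf held no Myh11-low cells). *Acta2* is high in all Myh11-high rows, *Higd1b* is near 0 outside the mural rows, and *Cdh5* is high in the *Pecam1*+*Cdh5*+ rows, whose cells were chosen by it.

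Cells close to the limits of the rule show where it drew its line. Outside it, 105 cells met all but the *Pecam1* limit, with 3347 CPM of *Rgs5* and 148 CPM of *Cdh5*. Another 50 cells met all but the *Ptprc* limit, with 3923 CPM of the macrophage gene *Lyz2*, and 19 of them were called doublets by Scrublet. The 14 cells with 3 or 4 UMIs of *Rgs5* plus *Myh11* had 1748 CPM of *Dcn*, the fibroblast proteoglycan decorin, and 545 CPM of *Acta2*, whereas the 7 cells just inside, with 5 to 7 UMIs, had 106 and 2327 CPM. No sharp gap was present at the split, where the 56 cells with 1 or 2 *Myh11* UMIs had 1144 CPM of *Acta2* and the 70 cells with 3 to 5 had 1670 CPM. In 102 mural cells *Rgs5* was at 0, and these held 3450 CPM of *Myh11* and 9834 CPM of *Acta2* but 22.2 CPM of *Abcc9*.

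Fibroblast and cartilage transcripts were also found in mural cells. In 111 of the 687 cells (16.2%) there was at least 1 UMI of *Pdgfra*, or at least 5 of *Dcn*, of the cartilage collagen gene *Col2a1* or of the cartilage proteoglycan gene *Acan*. These cells, called carriers here by a cut on those 4 genes, were 10 of 71 in control_4d (14.1%), 6 of 61 in RA_4d (9.84%), 38 of 198 in control_7d (19.2%) and 57 of 357 in RA_7d (16.0%). Their median depth was 21951 UMIs against 12563 in all mural cells. Scrublet called 21 mural cells doublets, 4 in control_7d and 17 in RA_7d, and 20 of the 21 were carriers. Summed over the 8 fibroblast markers, mural cells held 1109 CPM in control_4d, 755 in RA_4d, 775 in control_7d and 1753 in RA_7d. The most abundant was *Prrx1* in the first 3, at 547, 485 and 468 CPM, and *Dcn* in RA_7d at 605 CPM. The 8 cartilage and bone markers summed to 76.3, 66.5, 802 and 159 CPM in that order, led by *Acan* at 4 dpf and *Col2a1* at 7 dpf, with *Col2a1*, *Ibsp* and *Alpl* at 0 in both 4 dpf libraries. Endothelial markers were even across libraries (341, 301, 303 and 301 CPM), led by *Flt1* or *Esam*, and *Cdh5*, *Kdr*, *Tie1* and *Cldn5* were at 0 in RA_4d. Myeloid markers summed to 86.7, 154, 169 and 58.2 CPM, tendon markers to 31.2, 23.9, 107 and 170 CPM and Schwann cell markers to 38.2, 8.53, 9.46 and 22.6 CPM. Of the 7 skeletal muscle markers, *Des*, which mural cells also express, made up nearly all the sum (590 of 592 CPM in control_4d), and *Myod1* and *Myog* were at 0 in 3 libraries.

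Smooth muscle genes were graded along *Myh11*, and the genes of the ATP-sensitive potassium channel ran the other way. Cells were placed in 6 bins of *Myh11* UMIs per 10000, from 33 cells at 0 to 132 cells above 40. From the lowest to the highest bin, *Acta2* went from 1050 to 11060 CPM, *Tagln*, an actin-bundling protein of smooth muscle, from 429 to 8935 CPM and *Lmod1*, which nucleates actin filaments, from 28.9 to 658 CPM. *Cnn1* (calponin) and *Pln* were at 0 in the lowest bin and at 439 and 556 CPM in the highest. In contrast, *Kcnj8* and *Abcc9*, the pore and the regulatory subunit of the vascular ATP-sensitive potassium channel, went from 216 to 2.51 and from 393 to 10.6 CPM. *Steap4*, a metalloreductase, was 198 CPM in the lowest bin, highest in the third at 240 and 2.01 in the last. *Pdgfrb* went from 736 to 326 CPM. Pericyte markers did not move as 1 group. *Cspg4* (the NG2 proteoglycan) and *Rgs4* went up with *Myh11*, from 72.1 to 328 and from 121 to 388 CPM, *Higd1b* was 159 CPM in the lowest and 179 in the highest bin, and *Rgs5* was highest in the third bin at 4921 CPM and lowest in the last at 1547. *Vtn* likewise peaked in the third bin at 187 CPM, with 84.8 CPM in the first and 5.53 in the last. The bins were made from *Myh11* of the same cells, so these levels are a description.

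**Figure D3:**
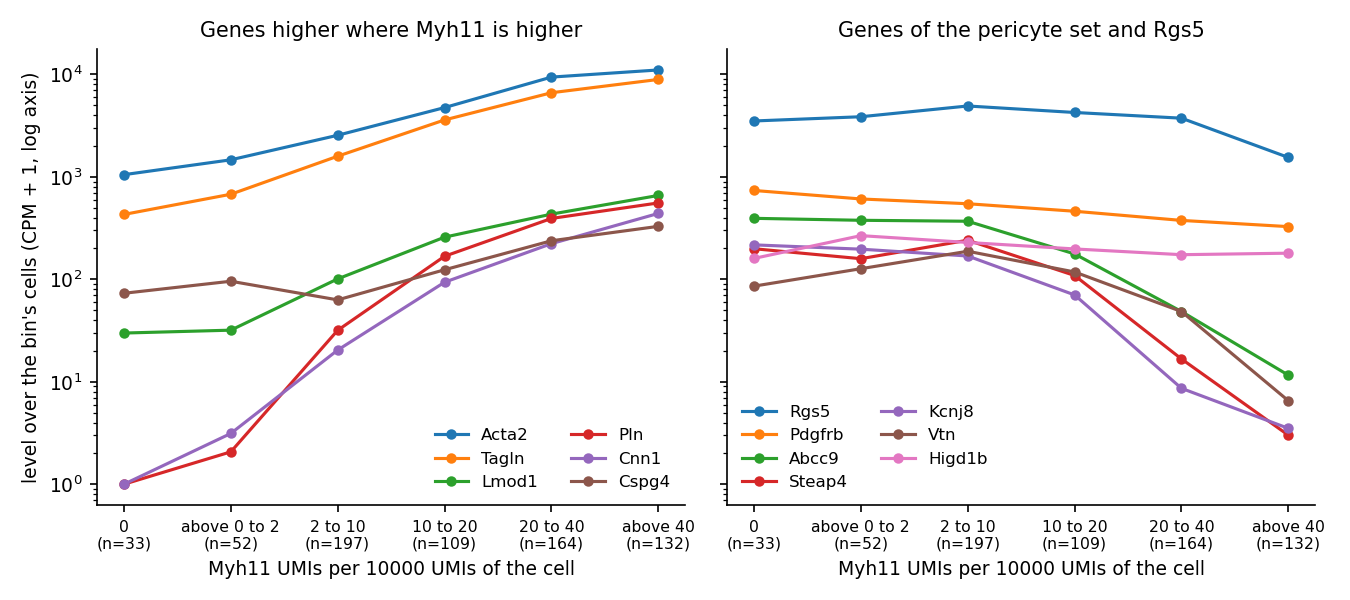
Level of marker genes (y axis, CPM plus 1, log scale) in 6 bins of mural cells by *Myh11* UMIs per 10000 UMIs of the cell (x axis, n cells below each bin). *Acta2* and *Tagln* climb from bin to bin, whereas *Abcc9* and *Kcnj8* decline from 393 and 216 CPM to 10.6 and 2.51 CPM.

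The 2 classes were compared within the libraries that held at least 20 cells of each, control_7d and RA_7d. Sums of UMIs per class were scaled to CPM and compared as log2 of CPM plus 1. Of 7981 genes with a sum of 100 UMIs or more, 457 (5.73%) were at least 2-fold higher in Myh11-high cells in both libraries and 80 (1.00%) at least 2-fold lower. The sum runs over both classes, so a gene found mainly in the larger high class passes at a lower CPM. High cells held 2143211 UMIs in control_7d and 4202070 in RA_7d, and low cells 604879 and 576986. The counts of higher and lower genes therefore cannot be set against each other. Among the smooth muscle markers 14 of 15 were higher, the exception being *Des*, and their median log2 ratio was 2.40 in control_7d and 2.95 in RA_7d, against 0.00 and -0.02 over all genes. *Acta2* was 7276 CPM in high and 1468 in low cells of control_7d and 5734 against 742 in RA_7d. *Pln* was 217 against 1.65 CPM and 309 against 0, the latter figures standing for 1 UMI in 37 and none in 47 low cells. *Myocd*, the coactivator that drives smooth muscle genes, was 87.7 against 6.61 and 97.8 against 10.4 CPM. Because the split used *Myh11*, with which these genes are graded, their counts are no independent result.

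Fewer pericyte markers differed between the classes. Of 14, none was 2-fold higher and only *Kcnj8* 2-fold lower in Myh11-high cells, with medians of 0.11 and -0.13. *Kcnj8* was 89.6 against 198 CPM in control_7d and 74.2 against 265 CPM in RA_7d. *Abcc9* was 180 against 352 and 173 against 522 CPM, past 2-fold in the second library alone. *Rgs5* itself was 4490 against 4002 and 3200 against 4088 CPM, *Cox4i2* 136 against 157 and 128 against 137 CPM, and *Gucy1a1*, which receives nitric oxide signals, 530 against 250 and 649 against 414 CPM. *Steap4* was 109 against 162 CPM in control_7d and 99.7 against 283 CPM in RA_7d. Without carriers the log2 ratio of *Kcnj8* in control_7d was -0.99, just short of 2-fold. Since both classes held pericyte markers, the high class is called by its rule and not as smooth muscle, and the low class not as pericytes.

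The counts of the other gene lists stand against 5.73% of all genes higher and 1.00% lower, and with few members a list nothing is read from them beyond the genes named. *Eln* (elastin) was 422 against 56.2 CPM in control_7d and 501 against 146 in RA_7d, and the cross-linking enzyme gene *Lox* 190 against 49.6 and 157 against 45.1 CPM. These were the 2 of 24 interstitial matrix genes that were higher, and *Col5a3* was lower. Of 15 basement membrane genes 3 were higher, *Col4a5*, *Lama5* and *Lamb2*. *Lama5*, a laminin chain, was 172 against 14.9 and 199 against 12.1 CPM. The main type IV collagen chain *Col4a1* was 1733 against 2619 CPM in control_7d and 1227 against 3144 CPM in RA_7d, so higher in low cells and past 2-fold in RA_7d alone. Of 12 growth factor genes of vessels, *Pdgfb*, *Pdgfc* and *Pdgfd* were higher and *Angptl4* lower. *Pdgfd* was 35.0 against 8.27 and 79.0 against 8.67 CPM. Of 20 genes of vascular tone, *Kcnmb1*, *Rgs2* and the myosin phosphatase inhibitor *Ppp1r14a* (468 against 144 and 404 against 132 CPM) were higher. *Kcnj8*, also a pericyte marker, was the 1 tone gene that was lower. Of 19 TGF-β and BMP genes, *Tgfb3*, *Ltbp1*, *Id2* and *Inhba* were higher, with *Ltbp1*, which holds latent TGF-β in the matrix, at 134 against 14.9 and 169 against 15.6 CPM. *Mef2c* and *Tbx2* were higher among 15 transcription factors, *Klf4* among 16 immediate early genes (612 against 203 and 800 against 227 CPM), and *Hey2* among 11 Notch genes. *Cd248*, a stromal sialomucin, was lower among 9 stromal genes, at 132 against 266 and 102 against 267 CPM. Without the top cells its log2 ratio was -0.75 in control_7d, no longer past 2-fold. Also lower was the interferon gene *Irf7* among 12, but from 18 and 15 UMIs in the low cells, and without the top cells its log2 ratio was -0.60 and -0.96. *Angptl4* was -0.98 in RA_7d without the top cells. In the other lists, 0 of 20 inflammatory and 0 of 13 hypoxia and glycolysis genes passed 2-fold in either direction in both libraries.

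Genes were also named by rank, although the split itself used *Myh11*. The 15 highest in Myh11-high cells, ranked by the smaller of both ratios, began with *Pln* (log2 ratios of 6.36 and 8.27), *Cdh6*, *Asb2*, *Fgf13*, *Fbxl22*, *Xirp1*, the ryanodine receptor gene *Ryr2*, *Cnn1* (5.34 and 7.16) and *Myh11*, and included *Col4a5*, *Rbm24* and the integrin gene *Itga8*. Those highest in Myh11-low cells were *Plac8* (log2 ratios of -3.45 and -2.97), *Limd2*, *Comp*, *Col15a1* (-1.94 and -2.27), *Top2a*, *Nhsl1* and *Mki67*, with *Mgp*, the matrix Gla protein that holds back calcification, at 15th. *Mgp* was 3416 CPM in low and 1223 CPM in high cells of control_7d, and 3454 and 701 CPM in RA_7d. *Comp*, a cartilage and tendon protein, had 97.0% and 84.8% of its low-class UMIs in 1 cell of each library, and without the top cells its log2 ratio was 1.27 and 0.37.

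Of 9 cell cycle genes measured, *Mki67*, *Top2a*, *Cdk1* and *Birc5* were 2-fold lower in Myh11-high than in Myh11-low cells in both 7 dpf libraries. Few cells carried these UMIs. For *Top2a* 61.5% and 65.7% of the low-class UMIs of control_7d and RA_7d were in 1 cell, and for *Cdk1* 75.9% in control_7d. Without carriers the log2 ratio in RA_7d was -0.47 for *Top2a* and -0.61 for *Mki67*, and without the top cells that of *Cdk1* was -0.22 in control_7d, so these were no longer past 2-fold. Cells with at least 5 UMIs over *Mki67*, *Top2a*, *Cenpf*, *Birc5* and *Cdk1* were 3 of 37 low cells (8.11%, interval 1.70 to 21.9) and 2 of 161 high cells (1.24%, 0.151 to 4.42) in control_7d, and 4 of 47 (8.51%, 2.37 to 20.4) and 5 of 310 (1.61%, 0.526 to 3.72) in RA_7d, with overlapping intervals in both. By time, such cells were 11 of 71 mural cells in control_4d (15.5%, interval 8.0 to 26.0), 7 of 61 in RA_4d (11.5%, 4.74 to 22.2), 5 of 198 in control_7d (2.53%, 0.825 to 5.79) and 9 of 357 in RA_7d (2.52%, 1.16 to 4.73). The intervals of the 4 dpf libraries overlap each other, and so do those of the 7 dpf libraries. Among endothelial cells of the same libraries the shares were 16.3%, 15.2%, 12.8% and 3.99% in that order. The number of UMIs per mural cell was also greater at 4 dpf, and its part in the share was not tested.

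At 4 dpf, RA and control mural cells differed by 2-fold in few genes. Of 4314 genes with a sum of 100 UMIs or more, 17 (0.394%) were 2-fold higher and 36 (0.834%) 2-fold lower in RA, from 61 and 71 cells, and the median log2 ratio was -0.00. The minimum sum favours genes high in the library with more mural UMIs, here control_4d, so no direction is read from these counts. Counts in the lists stand against 1.23% of all genes past 2-fold in either direction, so lists with 0 or 1 member past it are near the background and nothing is read from them. *Actg2* was the 1 of 15 smooth muscle markers that was lower (144 CPM in control_4d, 70.0 in RA_4d, log2 ratio -1.03, or -0.86 with every cell weighted equally) and *Colec11* the 1 of 14 pericyte markers (61.7 and 27.3 CPM, with 59.4% of its RA UMIs in 1 cell). None of 9 Notch, 19 tone, 14 basement membrane, 18 TGF-β and BMP, 16 immediate early, 13 transcription factor or 10 hypoxia and glycolysis genes passed. *Acta2* was 8125 CPM in control_4d and 5911 in RA_4d, *Tagln* 6174 and 4603, *Myh11* 2181 and 2961, *Rgs5* 4130 and 3376, and *Notch3* 748 and 983 CPM.

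Of 8 cell cycle genes measured at 4 dpf, 5 were lower in RA, against 0.834% of all genes. *Top2a* was 97.8 CPM in control_4d and 41.8 in RA_4d (ratio 0.427, 0.302 to 0.595), and *Cenpf*, *Ube2c*, *Tpx2* and *Mcm6* were lower too. These UMIs came from few cells, 12 and 7 for *Top2a*, and *Top2a* and *Tpx2* alone of the 5 stayed past 2-fold without carriers, without the top cells, without doublets and with every cell weighted equally. *Ube2c*, with 77.7% of its control_4d UMIs in 1 cell, had a log2 ratio of -0.58 without the top cells, *Cenpf* -0.81 with every cell weighted equally, and *Mcm6* -0.71 with equal weights and -0.89 without carriers. *Prc1*, which organises the dividing spindle, was 86.7 and 20.5 CPM. Genes named by rank among the lower ones included *Ifi27l2a*, an interferon-induced gene, at 197 CPM in control_4d and 40.9 in RA_4d (ratio 0.208, 0.150 to 0.283), and *Tppp3* at 161 and 53.7 CPM. *Tppp3* was lower in RA_4d in the other cells as well, with log2 ratios of -1.72 in endothelial, -2.38 in *Pdgfra*+*Prrx1*+ and -2.24 in *Ptprc*+ cells. So was *Ifi27l2a*, at -0.42, -1.18 and -0.74 in the same cells, beside -2.24 in mural cells. *Bst2* was the 1 of 9 interferon genes to pass, at 282 and 135 CPM, and *Angptl4* was lower among 9 growth factor genes, at 123 and 52.9 CPM. *Mmp2*, 1 of 23 interstitial matrix genes, and *Ly6a*, 1 of 8 stromal genes, were lower too, with 70.3% and 60.2% of their control_4d UMIs in 1 cell and log2 ratios of -0.96 and -0.63 without the top cells. *Dcn* (347 and 90.4 CPM) and *Lum*, 2 of 5 fibroblast markers, also ranked among the lower genes, but 97.2% and 94.8% of their control_4d UMIs lay in 1 cell. Without the top cells their log2 ratios turned to 1.91 and 0.81, but another RA_4d cell held 40 of the 106 *Dcn* UMIs of that library. Without carriers, which were picked in part by *Dcn*, they were -0.83 and 0.72.

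Among the 17 genes higher in RA at 4 dpf, *Ets2*, a transcription factor of the ETS family, was 25.7 CPM in control_4d and 63.1 in RA_4d (ratio 2.46, 1.64 to 3.75), and *Pink1*, a mitochondrial kinase, 34.0 and 77.6 CPM (2.28, 1.60 to 3.30). *Zbtb16* was 24.3 and 56.3 CPM, and it was also higher in RA_4d in endothelial cells (log2 ratio 2.24) and *Pdgfra*+*Prrx1*+ cells (1.18). *Pdgfc* was 25 and 54.6 CPM, a log2 ratio of 1.10 that was 0.65 without carriers and 0.69 with every cell weighted equally. The chemokine gene *Ccl2*, the 1 of 13 inflammatory genes to pass, was 123 and 252 CPM (2.04, 1.69 to 2.47) with UMIs in 25 and 15 cells. Its log2 ratio of 1.02 was 0.86 with every cell weighted equally and 0.91 without the top cells. *Cck*, which encodes the peptide hormone cholecystokinin, was 27.7 and 60.6 CPM, from 40 UMIs in 13 cells and 71 UMIs in 22 cells, with a log2 ratio of 1.10, or 0.90 with every cell weighted equally. *Spp1* (osteopontin) led by size at 126 and 325 CPM, but 98.7% of its RA_4d UMIs were in 1 cell and its log2 ratio was -3.19 without the top cell of each library. Of the 17 higher genes 8, and of the 36 lower 18, stayed past 2-fold in the same direction without carriers, without the cell richest in the gene, with every cell weighted equally and without doublets.

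At 7 dpf 0 of 15 smooth muscle and 1 of 14 pericyte markers differed by 2-fold between RA and control, while *Cck*, *Il6* and *Pdgfd* were higher and *Ccn2*, *Timp1* and *Col15a1* lower in RA. Of 7981 genes, 83 (1.04%) were higher and 33 (0.413%) lower, from 357 and 198 cells. Here the minimum sum favours genes high in RA_7d, the library with more mural UMIs, so no direction is read from these counts. Without carriers 39 of the 83 and 19 of the 33 were still past 2-fold, and 27 and 13 passed in all of the settings named above. None of 15 smooth muscle markers passed, with a median log2 ratio of -0.02 against 0.02 over all genes. *Acta2* was 5997 CPM in control_7d and 5131 in RA_7d, *Myh11* 1732 and 2173, *Pln* 170 and 271, *Rgs5* 4383 and 3307 and *Notch3* 606 and 683 CPM. Of 14 pericyte markers *Colec11*, a secreted lectin, was higher, at 40.4 and 86.6 CPM (ratio 2.14, 1.74 to 2.67), but its log2 ratio of 1.08 was 1.00 without carriers, just short of 2-fold. None of 11 Notch, 20 tone, 15 basement membrane, 12 interferon, 16 immediate early, 9 cell cycle, 13 hypoxia and glycolysis or 15 transcription factor genes passed. Within the Notch list, the ligand gene *Jag1* was 183 CPM in control_7d and 198 in RA_7d, *Rbpj* 71.0 and 81.2, and the target *Hes1* 304 and 373 CPM. The median of the immediate early genes was 0.32, with *Fos* at 841 and 1245 CPM and *Atf3* at 250 and 439 CPM.

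*Cck*, which was not among the ranked genes at 7 dpf for its low level and was followed up after its 4 dpf rank and its value were seen, was 5.09 CPM in control_7d, 38.3 in RA_7d, 27.7 in control_4d and 60.6 in RA_4d, so control_7d was the low library and both RA libraries were above their control. At 7 dpf the UMIs numbered 14 in 11 control cells and 183 in 68 RA cells, a ratio of 7.52 (4.37 to 14.0), and the log2 ratio was 2.69, or 3.18 without carriers. In the comparison cells *Cck* was at most 0.344 CPM over the 4 libraries. *Il6*, the interleukin of acute inflammation, was 73.9 CPM in control_7d and 163 in RA_7d (2.21, 1.89 to 2.59), with UMIs in 69 and 141 cells. It was also higher in RA_7d in endothelial cells (log2 ratio 0.88), *Pdgfra*+*Prrx1*+ cells (1.11) and *Ptprc*+ cells (0.85), beside 1.13 in mural cells. At 4 dpf *Il6* was 116 and 148 CPM. *Pdgfd* was 29.1 and 70.5 CPM (2.42, 1.89 to 3.13), with a log2 ratio of 1.15 in Myh11-high and 0.06 in Myh11-low cells, a difference that was not tested. *Tgfbr3*, the co-receptor betaglycan, was 58.2 and 140 CPM (2.40, 2.02 to 2.88), and 1.02 on the log2 scale in endothelial cells. Its log2 ratio in mural cells, 1.25, was 0.99 without carriers.

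*Ccn2* (connective tissue growth factor) was 216 CPM in control_7d and 55.9 in RA_7d (0.259, 0.223 to 0.300), against 119 and 163 CPM at 4 dpf. Without carriers it was 107 and 47.9 CPM at 7 dpf, a log2 ratio of -1.14 in place of -1.93. The log2 ratio at 7 dpf was -1.93 in all mural cells, -0.46 in *Pdgfra*+*Prrx1*+ cells and 0.14 in endothelial cells. *Timp1*, an inhibitor of matrix metalloproteinases, was 225 and 74.9 CPM (0.334, 0.292 to 0.381), and the log2 ratio was -1.51 in Myh11-high and -1.36 in Myh11-low cells. In endothelial, *Pdgfra*+*Prrx1*+ and *Ptprc*+ cells the log2 ratio was -0.80, -0.71 and -0.36. *Timp1* was the 1 of 24 interstitial matrix genes to pass, and at 4 dpf it was 90.2 and 86.2 CPM, so control_7d stood above the other 3 libraries. *Col15a1*, a collagen of vascular basement membranes, was 175 and 71.4 CPM at 7 dpf and 41.6 and 40.9 CPM at 4 dpf, again with control_7d highest. *Fdps*, an enzyme of the cholesterol pathway, was 55.7 and 18.8 CPM. *Fdps* was also lower in RA_7d in endothelial (log2 ratio -1.08) and *Pdgfra*+*Prrx1*+ cells (-1.61). *Cxcl10*, a chemokine induced by interferon, was the 1 of 20 inflammatory genes that was lower, at 57.5 and 19.0 CPM, with UMIs in 21 and 24 cells. In control_7d 44.3% of these UMIs were in 1 cell. The log2 ratio of *Cxcl10* was -1.55 in mural, -1.21 in endothelial, -0.31 in *Pdgfra*+*Prrx1*+ and -0.94 in *Ptprc*+ cells.

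Genes used as markers of other cells also differed at 7 dpf. Against 1.04% of all genes, 6 of the 8 fibroblast markers were 2-fold higher in RA (*Pdgfra*, *Dcn*, *Pi16*, *Dpt*, *Mfap5* and *Clec3b*). Without doublets *Pdgfra* (log2 ratio 0.23), *Dpt* (0.11) and *Mfap5* (0.66) were no longer past 2-fold, and without carriers *Pi16* (0.12), *Dpt* (-0.61) and *Mfap5* (0.65) were not either. Carriers were picked by *Pdgfra*, *Dcn*, *Col2a1* and *Acan*, so leaving them out lowers those genes by the choice itself. *Dcn* was 102 CPM in control_7d and 605 in RA_7d, a log2 ratio of 2.56, but the median mural cell of RA_7d held 0 *Dcn* UMIs and 93.6% of them lay in the tenth of cells with the most. Without doublets the log2 ratio was 1.62, and without carriers 1.13. *C3*, the central complement component, had 12 UMIs in 9 cells of control_7d and 590 UMIs in 52 cells of RA_7d, and its log2 ratio was 4.54, or 1.51 without carriers. *C3* was also higher in RA_7d in endothelial (log2 ratio 2.38), *Pdgfra*+*Prrx1*+ (2.35) and *Ptprc*+ cells (1.54), and *Dcn* had 1.31, 1.03 and 1.46 in the same cells. *Saa3*, an acute phase protein, had 0 UMIs in control_7d and 379 in RA_7d, at least 72.6-fold higher against a floor of 3 counts, but 98.2% of them were in 1 of the 357 cells. Of 5 cartilage and bone markers *Acan*, *Col2a1* and *Ibsp* were lower, against 0.413% of all genes. For *Ibsp* 93.6% of the control_7d UMIs were in 1 cell, and its log2 ratio of -2.63 was -0.08 without the top cells. *Col2a1* was 389 CPM in control_7d, of which 85.3% was in 1 cell, and 43.9 CPM in RA_7d. Its log2 ratio of -3.12 was -0.44 without the top cells, no longer past 2-fold. *Ly6a* and *Cd34*, markers of stromal progenitors that endothelial cells also express, were higher among 9 stromal genes. *Cd34* had 12 UMIs in control_7d and 128 in RA_7d and *Ly6a* 55 and 340, with log2 ratios of 2.37 and 1.78, or 1.53 and 1.07 without carriers. Of the other marker lists, *Lyz2* was the 1 myeloid marker with enough UMIs and was lower, and *Tnmd* was higher among 2 tendon markers. The log2 ratio of *Lyz2*, -1.60, was -0.95 without doublets, and that of *Tnmd*, 1.42, was 0.44 without doublets, 0.59 with every cell weighted equally and -0.62 without carriers. Whether these UMIs belonged to the mural cells themselves was not tested.

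**Figure D4:**
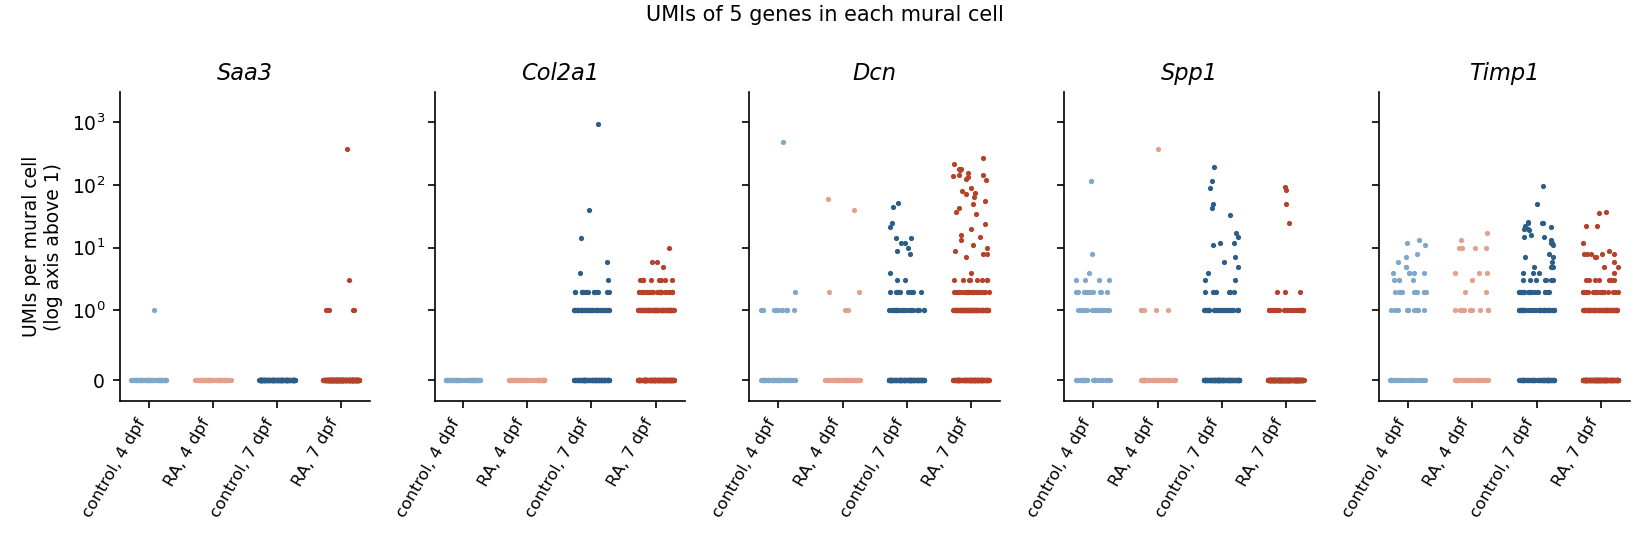
UMIs of 5 genes in each mural cell (1 point a cell, y axis log above 1), by library. A single RA_7d cell stands at the top for *Saa3*, a single control_7d cell for *Col2a1* and a single RA_4d cell for *Spp1*, whereas the *Timp1* UMIs lie in 108 cells of control_7d and 129 of RA_7d.

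**Figure D5:**
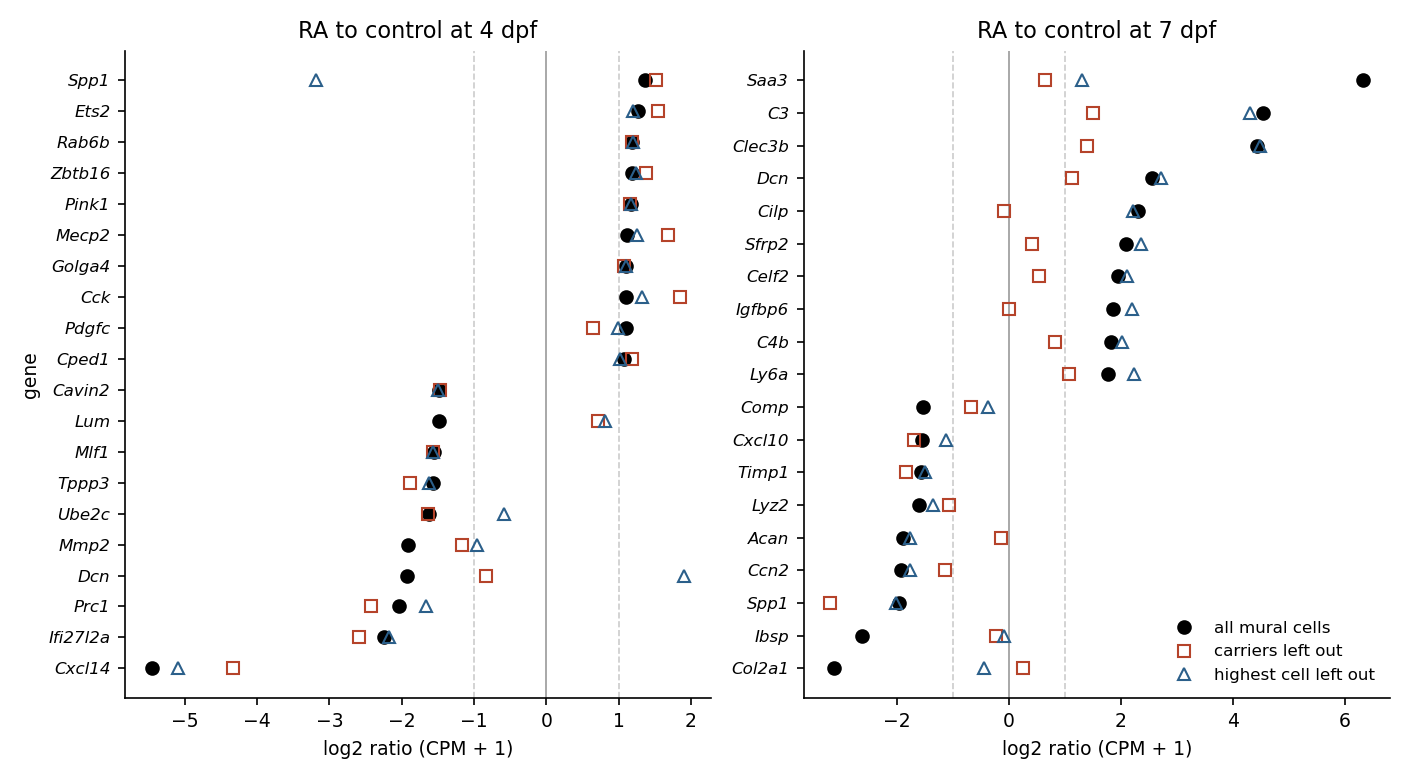
Log2 ratio of RA to control (x axis, CPM plus 1, dashed lines at 2-fold) for genes ranked among the 10 highest and 10 lowest at 4 and 7 dpf, over all mural cells (filled), without carriers (squares) and without the richest cell of each library (triangles). *Ets2* and *Pink1* keep their place under all 3, *Spp1* at 4 dpf goes to -3.19 without the richest cell, and *Col2a1* at 7 dpf, 1 of the 4 genes by which carriers were picked, goes to 0.26 without them.

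The times were compared in each condition in the same way. From 4 to 7 dpf in control callus 100 of 5962 genes (1.68%) were 2-fold higher and 39 (0.654%) lower, and in RA callus 212 of 7171 (2.96%) were higher and 27 (0.377%) lower. The higher and lower counts cannot be set against each other. A gene found mainly in the larger library reaches the sum of 100 UMIs at a lower CPM. RA_7d held 4779056 mural UMIs against 1172189 in RA_4d, and control_7d 2748090 against 1441533 in control_4d. Past 2-fold in all of the settings named for RA and control were 48 of the 100 and 19 of the 39 genes in control, and 103 of the 212 and 7 of the 27 in RA. These comparisons share their libraries with those of RA and control. *Fabp4*, the fatty acid binding protein of adipocytes and capillary endothelium, was 1760 CPM in control_4d and 590 in control_7d (0.335, 0.315 to 0.357), and 2109 in RA_4d and 1000 in RA_7d (0.474, 0.452 to 0.498), the latter a log2 ratio of -1.08 that was -0.92 without doublets and -0.90 without the top cells. In endothelial cells, where *Fabp4* was 6040 CPM over all libraries, the log2 ratio of 7 to 4 dpf was -0.14 in control and 0.09 in RA. The fatty acid transporter gene *Cd36* was 150 and 42.9 CPM in control and 86.2 and 68.6 in RA, and *Pparg*, the nuclear receptor that drives both, 75.6 and 26.2 CPM in control and 75.9 and 53.6 in RA. Of the cell cycle genes 8 of 10 were lower in control and 2 of 8 (*Mki67* and *Birc5*) in RA. Without the top cells 4 of them were lower in control and 1 in RA.

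Among the fibrillar collagen genes, *Col1a1* was 1409 CPM in control_4d and 3254 in control_7d, and 1349 in RA_4d and 2766 in RA_7d, but its log2 ratio without carriers was 0.28 in control and 0.08 in RA. In control *Col1a1*, *Tnc* and *Timp1* passed 2-fold among 23 interstitial matrix genes, and in RA *Col1a1*, *Col1a2*, *Col3a1* and *Mmp2*. Without carriers *Tnc* (0.55) and *Timp1* (0.64) in control and *Col1a2* (0.48) and *Col3a1* (0.67) in RA were below 2-fold on the log2 scale, and *Mmp2* in RA was 2.37. *Col3a1* was 2676 and 2986 CPM in control and 1734 and 4185 CPM in RA. *Pde7b*, a cyclic AMP phosphodiesterase, was 4.86 and 51.7 CPM in control (10.6, 5.03 to 26.9) and 5.12 and 26.4 CPM in RA (5.15, 2.30 to 14.3). It did not follow the other cells in control, where its log2 ratio was 3.17 in mural, -1.25 in endothelial and -0.55 in *Pdgfra*+*Prrx1*+ cells. The Notch target *Hey1* had 26 UMIs in control_4d and 110 in control_7d (2.22, 1.44 to 3.55), and stood at 29.9 and 21.8 CPM in RA, the 1 of 11 Notch genes to pass in either condition. Its log2 ratio of 1.11 in control was 0.95 without carriers and 0.90 with every cell weighted equally. Of the ranked genes, *Col2a1* was at least 187-fold and the bone sialoprotein gene *Ibsp* at least 74.0-fold higher in control_7d than in control_4d, followed by *Col11a1* (log2 ratio 6.03), *Comp* (5.63), *Mest*, *C1qtnf3*, *Pde7b*, *Ecrg4*, *Cthrc1* and *Ptn*. As 93.6% of the *Ibsp* UMIs of control_7d lay in 1 cell, its bound describes mainly that cell, and the log2 ratio of 7.28 was 3.44 without it. *Comp* had 69.4% in 1 cell. *Col2a1* had 85.3% in 1 cell, and its log2 ratio of 8.61 was 5.86 without that cell, while *Ecrg4*, at 3.17, was 0.77 without carriers. For *Col2a1* the log2 ratio was 7.59 in *Ptprc*+ and 5.04 in endothelial cells of the same libraries.

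Of the pericyte markers, 3 of 14 differed by 2-fold between the times in RA callus, where 3.33% of all genes did, and 0 of 14 in control, where 2.33% did. In RA, *Kcnj8* was 37.5 CPM in RA_4d and 97.3 in RA_7d (2.59, 1.90 to 3.62), *Colec11* 27.3 and 86.6, and *Higd1b* 326 and 143 CPM (0.438, 0.386 to 0.498). In control they were 67.3 and 114, 61.7 and 40.4, and 299 and 199 CPM in the same order, and whether the conditions differ was not tested. RA_4d held no Myh11-low cells, in which *Kcnj8* was higher, and within Myh11-high cells the log2 ratio of *Kcnj8* from 4 to 7 dpf in RA was 0.97. *Ednrb*, an endothelin receptor gene, was 207 CPM in RA_4d and 86.0 in RA_7d (0.415, 0.353 to 0.488), and *S100a4* 1895 and 748 CPM. Smooth muscle markers did not pass in either condition (0 of 15 in each), and their medians were -0.39 in control and -0.20 in RA. Globin transcripts set RA_4d apart. *Hbb-bs* was at 0 UMIs in RA_4d mural cells and 181 CPM in RA_7d, at least 70.6-fold higher, and the summed erythroid markers were 126 CPM in control_4d, 3.41 in RA_4d, 234 in control_7d and 348 in RA_7d. Endothelial, *Pdgfra*+*Prrx1*+ and *Ptprc*+ cells of RA had log2 ratios of 7.05, 5.94 and 4.57 for *Hbb-bs* over the same times.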

How the data were processed

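Per the labels and the methods of the study, callus was scraped along the periosteal surface, digested with collagenase and prepared as 4 Chromium 3′ libraries from wild-type C57BL/6J mice, each from 1 pool. The labels and the methods give different numbers of mice per pool. The values that the authors deposited are raw UMI counts for each gene in each barcode, made on mm10 with Cell Ranger 7.0.1 per the submitters' processing notes, without scaling. The mural cells of control_4d summed to 1441533 UMIs, those of control_7d to 2748090, those of RA_4d to 1172189 and those of RA_7d to 4779056.

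Raw counts of the cells in a group were summed per library, scaled to CPM and compared as log2 of CPM plus a pseudocount of 1, among genes whose UMIs summed to at least 100 in the libraries compared. A gene was past 2-fold at an absolute log2 ratio of at least 1. Shares have Clopper-Pearson intervals, and ratios of UMIs or cells an exact conditional interval. Python 3.11.15, numpy 2.4.6, scipy 1.17.1, pandas 2.3.3, scanpy 1.11.5 (with Scrublet) and matplotlib 3.10.9 were used, and the calculation was tested on simulated data. Of 129 barcode sequences found in more than 1 library, 3 belonged to mural cells. Mural cells had a median of 4.11%, 4.11%, 4.68% and 4.07% mitochondrial UMIs in control_4d, control_7d, RA_4d and RA_7d, and cells called doublets were kept.

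The members, the lists and the alternatives were chosen with earlier results of these data known. The comparison of the classes was planned for all 4 libraries and could be made in the 2 with at least 20 cells of each class. Genes were named as genes of the rule, members of the lists, the 10 largest rises and falls of each comparison (a level of at least 50 CPM in 1 of the libraries), and the 15 largest differences in each direction between the classes. A gene that this rule names is not reported here. The alternatives were other cell limits, rules and splits, thinning, doublets left out, other denominators, pseudocounts and minimum counts, TMM scaling and equal weights per cell. Genes that lead the mural cells were chosen after their values were seen. Leaving out the carriers or the cell richest in a gene was added after seeing the data. No other experiment of the study was analysed here.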

Additional observations from a re-analysis of the deposited data

Results flagged for a closer look

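For 5 genes the ratio of RA to control lay past 2-fold in opposite directions at 4 and 7 dpf, and none of these differences was tested. The log2 ratio of *Colec11*, a secreted lectin, was -1.15 at 4 dpf and 1.08 at 7 dpf, the latter 1.00 without carriers and just short of 2-fold. That of *Dcn* was -1.93 and 2.56, with 97.2% of the control_4d UMIs in 1 cell. Without the richest cell of each library the *Dcn* ratios were 1.91 and 2.71. The value at 4 dpf rests mainly on another RA_4d cell, with 40 of the 106 *Dcn* UMIs of that library. Without carriers, which were picked in part by *Dcn*, the ratios were -0.83 and 1.13, so the direction at 4 dpf is not settled. *Ly6a* had -1.21 and 1.78, with 60.2% of the control_4d UMIs in 1 cell, and -0.24 at 4 dpf without carriers. *Tnxb*, which encodes tenascin-X, had -1.21 and 1.30, with 52.4% of the control_4d UMIs in 1 cell, and without carriers -0.42 and 0.42. *Spp1* had 1.37 and -1.96, with 98.7% of the RA_4d UMIs in 1 cell. Without the richest cell of each library its log2 ratios were -3.19 and -2.02, so lower in RA at both times in that setting, and without carriers 1.52 and -3.19. Only 6 mural cells of RA_4d held *Spp1* UMIs. At 4 dpf the log2 ratio of *Spp1* was -2.04 in endothelial, -1.97 in *Ptprc*+ and 0.73 in *Pdgfra*+*Prrx1*+ cells.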

How the results depend on the processing

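No paired analysis was run, and each condition had 1 library at each time. Among cells with 0 *Ptprc* UMIs the mural share of control_4d was 3.67%, of control_7d 4.40%, of RA_4d 4.17% and of RA_7d 5.94%, with an RA to control ratio of 1.35 at 7 dpf. Of all kept cells, the share without carriers was 2.08% in control_7d and 3.65% in RA_7d. With the split at 10 *Myh11* UMIs the high share was 56.6% in control_7d, 85.2% in RA_4d and 64.7% in RA_7d, and with the split per 10000 UMIs it was 93.4% in RA_4d. Genes past 2-fold between RA and control at 4 dpf numbered 53, and 23 with a pseudocount of 10, 299 with a minimum of 30 UMIs and 7 with 300. At 7 dpf they numbered 116, and 67, 315 and 48 under these settings, 241 as the mean of both classes and 75 without carriers. From 4 to 7 dpf in control they numbered 139, and 89, 447 and 23 under the same 3 settings and 79 without carriers. In RA they numbered 239, and 141, 622 and 79, with 150 without doublets, 133 without carriers and 376 without the cell richest in each gene, a step that takes a larger part of a library of 61 cells than of one of 357. The count between the classes, 537, stayed within 1.5 times under the alternatives run. Its part lower in Myh11-high cells did not, with 80 genes, and 162 with the split at 10 UMIs, 36 with a pseudocount of 10 and 43 without the richest cell. The share of higher genes is not corrected for the unequal UMI totals of the libraries or classes compared, on which the minimum sum depends. At 7 dpf it was 71.6%, and 57.7% without doublets, 52.0% without carriers and 82.5% without the richest cell. It was 32.1% at 4 dpf, and 13.0% with a pseudocount of 10 and 42.9% with a minimum of 300 UMIs. In control over time it was 71.9%, and 61.5% with a minimum of 30 UMIs, 58.2% without carriers and 84.8% without the richest cell, and between the classes it was 85.1%, and 69.3% with the split at 10 UMIs. TMM moved log2 ratios by at most 0.02.

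Of 1327 values of named genes under alternatives, 18 reversed, and the cause was not tested beyond the cells that each alternative removes. At 4 dpf these were *Spp1* (-3.19), *Dcn* (1.91) and *Lum* (0.81) without the richest cell, and *Lum* (0.72) without carriers. At 7 dpf without carriers, which were picked by *Pdgfra*, *Dcn*, *Col2a1* and *Acan*, they were *Cilp* (-0.09), *Col2a1* (0.26), *Dpt* (-0.61), *Thbs4* (-0.30) and *Tnmd* (-0.62), and in Myh11-high cells alone *Ibsp* (1.17). From 4 to 7 dpf in control they were *Celf2* (0.14) and *Dcn* (0.85) without carriers, *Celf2* (0.06) and *Dcn* (2.97) without the richest cell, and *Plac8* (-0.54) in Myh11-high cells alone. In RA they were *Cd34* (-0.15) without doublets, *Ly6a* (-0.20) without carriers and *Spp1* (3.02) without the richest cell. The 4 dpf libraries held 61 and 71 mural cells.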
